A study of Mus musculus with 16 samples.

Results

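Chemokines are small secreted proteins that direct the movement of leukocytes along a concentration gradient. They bind G protein-coupled receptors on the migrating cells, and atypical receptors take the ligands up without the classical G protein signal. In skeletal muscle they are known for the recruitment of monocytes and macrophages during repair and in obesity, and for the upkeep of resident stromal and vascular cells. The genes described here are all mouse genes of the mRNA table with names of the form Ccl, Cxcl, Ccr, Cxcr, Xcl or Xcr followed by a number, together with Cx3cl1, Cx3cr1 and Ackr1 to Ackr4. These are 57 of the 23235 gene names, namely 36 ligands including the annotated pseudogenes Ccl19-ps1 and Ccl19-ps3, 17 receptors and 4 atypical receptors.

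Skeletal muscle RNA came from 16 male C57BL/6J mice (C57BL/6 in the strain label) that were 6 weeks old at the start, with 4 mice in each of 4 groups and 1 ribosomal RNA-depleted library per mouse. The control group received a normal diet. The HFD group received a diet with 60% fat for 8 weeks, the HFD + RSV group was given resveratrol for 6 weeks on this diet, and the HFD + MET group was given metformin for 6 weeks on this diet. No group was genetically modified, the muscle is not named, and no group received a drug on the normal diet. According to the methods, some mice of each group were injected with insulin before tissue collection, and which of the sequenced mice these were is not given. The titles of the 4 HFD mice share a leading number that no other mouse carries, and the labels do not say what it stands for. The comparisons ask whether the diet, and each drug on the diet, changed the level of these genes.

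The mRNA table held 17625909 to 29761026 counts per mouse, and the 57 genes together had 188 to 252 CPM, where CPM is the count scaled to the normalized library size. The muscle fibre markers summed to 55900 to 106000 CPM. Markers of other cells varied between mice: adipocyte markers summed to 1040 to 4720 CPM in control mice, 208 to 1030 in HFD mice, 301 to 1210 in HFD + RSV mice and 211 to 4380 in HFD + MET mice, with control mouse 3 and HFD + MET mouse 3 highest. The Schwann cell markers were highest in HFD + RSV mouse 2 at 333 CPM, against 36.1 to 175 in the others. The 10 T and NK cell markers and the 6 B cell markers together reached at most 2.35 and 1.17 CPM. In bulk tissue, fewer cells of a type and less RNA per cell cannot be told apart.

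Of the 57 genes, 26 had a mean of 10 or more counts per mouse, namely 17 ligands, 5 receptors and 4 atypical receptors. Ordered by mean FPKM (fragments scaled to transcript length and library size, summed over the transcripts of a gene), 25 of them were Cxcl12, Cxcl14, Ccl11, Ccl25, Ackr3, Ccl6, Ccl27a, Ccl21a, Ccl9, Ccl21c, Ccl8, Cxcr4, Ccr2, Ackr1, Ccl24, Cxcl9, Cx3cl1, Ackr2, Cxcl16, Cxcl13, Ccl28, Ackr4, Cxcl11, Cx3cr1 and Ccr1. Cxcl12, the stromal ligand of Cxcr4 that retains progenitor cells, had the highest mean level over the 16 mice, at 16.8 FPKM, and reached 25.3 in 1 mouse. Cxcl14, a ligand of epithelia and stroma, followed at 15.9 FPKM (9.39 to 23.4), so the ranges of the 2 genes overlapped. Ccl11 (eotaxin), which attracts eosinophils, averaged 9.23 FPKM (6.83 to 11.6). Ccl25, known as the thymic and intestinal ligand of Ccr9, averaged 6.42 FPKM, Ackr3, the atypical receptor for Cxcl12, 6.33 FPKM, and Ccl6, a ligand made by macrophages, 6.03 FPKM. The receptor with the highest level was Cxcr4 at 1.62 FPKM, below each of the 11 genes listed before it.

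**Figure D1:**
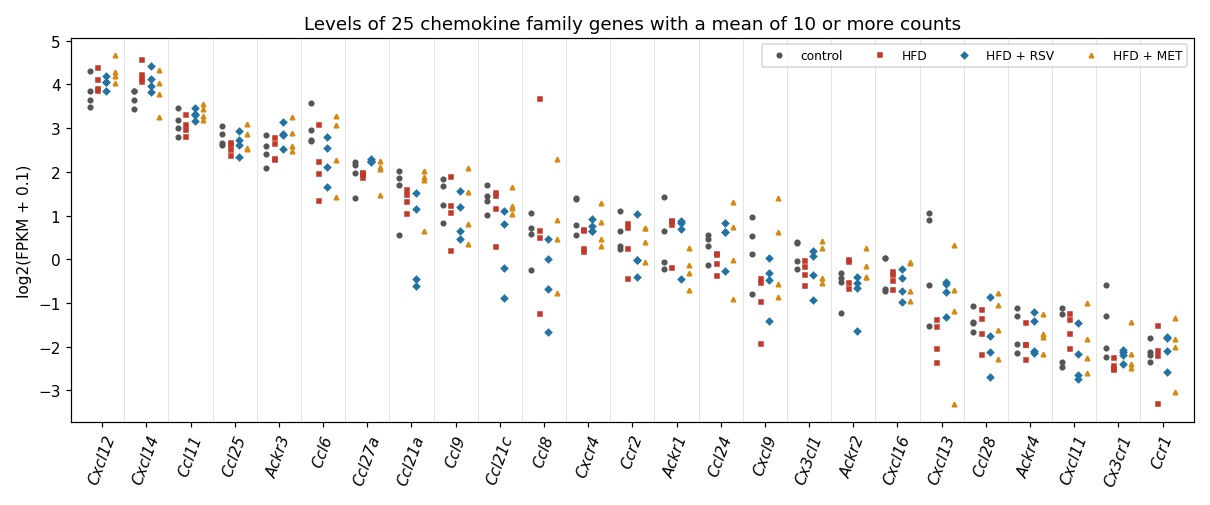
Each point is 1 mouse, with log2(FPKM + 0.1) on the vertical axis and 25 genes with a mean of 10 or more counts in the order of their mean FPKM on the horizontal axis; colours and symbols mark the 4 groups of 4 mice. Cxcl12 and Cxcl14 lie highest, and the spread within a group widens towards the genes of low level.

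The other 31 genes had a mean below 10 counts. Cxcl1 (mean 9.69 counts) and Cxcl10 (6.56 counts) still passed the filter on low counts, so that 28 members entered the tests with 15364 genes in all and 29 did not. Among those left out was Ccl2, the main monocyte attractant, with 23 counts in control mouse 4 and 0 to 7 in each of the other 15 mice. Ccl7, which shares the receptor Ccr2 with it, had 26 counts in HFD mouse 4 and 1 to 12 in the others. Ccr3, the eotaxin receptor, had 17 counts in control mouse 3 and at most 9 elsewhere, and Ccl5, a ligand made by T cells, had 0 to 11. Cxcr3, the receptor of the interferon-induced ligands Cxcl9, Cxcl10 and Cxcl11, had 0 to 11 counts. Cxcr5, the receptor of Cxcl13, had 0 to 5, and Ccr7, the receptor of Ccl19 and Ccl21, had 0 to 7. Cxcr2, the receptor of the neutrophil attractants, had 0 to 7 counts, while its ligands Cxcl2 and Cxcl5 had at most 2. The remaining untested members were Xcr1, Cxcr6, Ccl19, Ccl27b, Ccr10, Ccr9, Ccl22 and Ccl19-ps1 with mean counts of 1 to 4.94, Ccl12 with 1.75, and Xcl1, Ccl4, Ccl17, Ccl21b, Ccl26, Ccl19-ps3, Ccr1l1, Ccr4, Ccr8 and Cxcl17 with means of 0.188 to 0.688. None of the 57 genes was at 0 in every mouse. The filter on low counts kept these 29 genes out of the tests, which does not show that they were alike between groups.

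Without the filter, edgeR called 0 of these 29 genes in any of the 6 comparisons, against 0.68% of all genes between HFD and control mice, 0% with resveratrol and 0.00861% with metformin, both relative to HFD mice, 0.0043% and 0% with resveratrol and metformin relative to control mice, and 0% between the drugs. At an unadjusted P below 0.05 there were 6, 3, 3, 0, 2 and 2 of the 29 genes in the same order. The shares of all genes at that P were 18.3%, 4.37%, 6.37%, 12.2%, 7.96% and 4.09%. Ccl12, a monocyte attractant that shares Ccr2 with Ccl2, had 5, 2, 2 and 7 counts in the HFD mice, 0, 0, 1 and 0 in the HFD + RSV mice, 0, 0, 0 and 2 in the control mice and 3, 4, 2 and 0 in the HFD + MET mice. All 4 HFD mice lay above all HFD + RSV mice, while 2 HFD mice had the same count as control mouse 4. Ccl12 was not alone in this, as Ccl19 did not overlap between these 2 groups either. Over the 6 comparisons, in the order given above, 1, 2, 1, 1, 3 and 1 of the 29 genes did not overlap. The share of all genes without overlap is not given here for the unfiltered fit. The adjusted P of Ccl12 was 1 with resveratrol and 0.167 between HFD and control mice in edgeR, and the exact permutation P was 0.0286, the smallest that 4 mice against 4 can give, and 0.0857. Ccl7 had 12, 3, 8 and 26 counts in the HFD mice, 1, 5, 3 and 4 in the HFD + RSV mice, 2, 2, 5 and 5 in the control mice and 7, 7, 12 and 8 in the HFD + MET mice. HFD mouse 2 lay within the range of the HFD + RSV and control mice, and the HFD + MET mice were above all mice of those 2 groups. The log2FC of Ccl7 was 1.80 ± 0.60 (SE) between HFD and control mice and -1.89 ± 0.60 (SE) with resveratrol, with adjusted P-values of 0.132 and 1 in edgeR.

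The coordinates of all 131 deposited transcripts of these genes equal those of the GENCODE annotation of GRCm38 used here. Cxcl12 lies at chr6:117168535-117181367 (plus strand), Cxcl14 at chr13:56288643-56296551 (minus strand), Cxcl9 at chr5:92321347-92328079 (minus strand), Cxcl13 at chr5:95956951-95961068 (plus strand) and Cx3cr1 at chr9:119901616-120069879 (minus strand). Ackr1 lies at chr1:173331886-173333750 (minus strand), Ackr2 at chr9:121898355-121911074 (plus strand) and Ccl8 at chr11:82115185-82116799 (plus strand). The family lies mostly in clusters, with 12 members on chromosome 11, 14 on chromosome 9, 9 on chromosome 5 and 7 on chromosome 4. Symbols with near-identical copies can share reads that the counting has to divide, and their levels are uncertain. Of the counts of Ccl21a, a ligand of lymphatic vessels and lymph nodes, 14.2% were assigned to the copy at chr4:42772860-42773993 (minus strand) and 85.8% to a copy on the unplaced scaffold JH584294.1. Ccl21c had 97.7% of its counts on the scaffold GL456350.1, while Ccl21b at chr4:42255767-42256432 (plus strand) had 4 counts over all 16 mice. The coding sequences of the chromosome 4 copy of Ccl21a and of Ccl21b are both 402 bases long and 99.5% identical, with 2 differing bases. The scaffold copies and Ccl21c were not compared in sequence. The stretch from base 164 to base 223 of each coding sequence, shown because it holds 1 of the 2 bases that tell the genes apart (in capitals), reads 5′ to 3′:
Ccl21a: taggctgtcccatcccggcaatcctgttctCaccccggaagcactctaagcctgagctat
Ccl21b: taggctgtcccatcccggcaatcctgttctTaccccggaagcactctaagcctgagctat

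The counts of a symbol did not always lie in protein-coding transcripts. Of the counts of Ccl25 (chr8:4325210-4360020, plus strand), 85.2% were in transcripts annotated as retained intron and 7.2% in protein-coding ones, and its exons overlap those of Elavl1 on the other strand by 204 bases. Cxcl11 (chr5:92359544-92365485, minus strand) is annotated as a polymorphic pseudogene, and 1.6% of its counts were in a protein-coding transcript. Retained-intron transcripts held 61.3% of the counts of Cxcl1, 38.1% of those of Cxcl10 and 35.3% of the chromosome 4 counts of Ccl27a. Gm2673 overlaps 1582 of the 3794 exonic bases of Cxcl11. Zmynd15 overlaps the exons of Cxcl16 by 552 bases, Acad11 those of Ackr4 by 479 bases and Cadm3 those of Ackr1 by 361 bases. Cadm3 lies on the same strand as Ackr1 and the others on the opposite strand of their partners. Whether strand was used in counting is not given in the sources used here, and strand would not separate Cadm3 from Ackr1, so reads of these overlaps cannot be assigned to one gene with certainty.

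**Figure D2:**
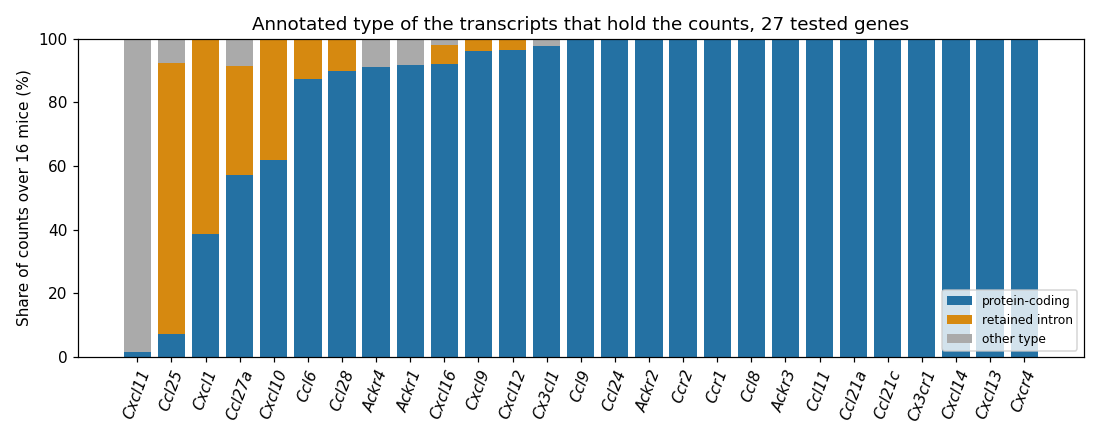
Bars give, for each of 27 tested genes, the share of its counts over 16 mice (percent, from 0 to 100) in transcripts annotated as protein-coding, as retained intron and as other types. Ccl25 is mostly retained intron, Cxcl11 lies almost wholly in another type, and most of the other genes are protein-coding.

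In the test over all 4 groups, 0 of the 28 members were called at an adjusted P below 0.05 with edgeR's quasi-likelihood test, while 0.117% of all genes tested were called. At an unadjusted P below 0.05 there were 5 members. They were Ackr2, Cxcl9, Cx3cr1, Cxcl14 and Cxcl13, in this order, and their adjusted P-values in edgeR were 0.302 to 0.323. DESeq2 and limma on log2(FPKM + 0.1) also called 0 members over the 4 groups, while they called 773 and 4 of all genes. At an unadjusted P below 0.05 they had 7 and 1 members. The share of all genes at an unadjusted P below 0.05 is not given here for the 4-group tests, so these members are not set against it. The test over the 3 groups in the 12 mice without metformin called 1 member, Cxcl14, and 741 of all genes. With so few mice, an absent call does not show that a gene stayed the same: in data simulated for the HFD and control groups, 57% of genes changed at a log2 fold change (log2FC) of 1 and 84.5% of those changed at 2 were called. The changed genes were drawn at random from all genes tested, so these shares are not those of the members. The edgeR coefficient of variation between mice was 0.147 to 0.813 for the members, against a common value of 0.261.

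Between the HFD and control groups, 0 of the 28 members were called at an adjusted P below 0.05 in edgeR, where 2.43% of all genes were called. At an unadjusted P below 0.05 there were 4 members, or 14.3%, against 24.2% of all genes. An unadjusted P below 0.05 with an absolute log2FC above 1 picked 3 members, all lower in the HFD group (Cxcl13, Cxcl9 and Cx3cr1), against 4.94% of all genes. Throughout, a log2FC is given as the first group relative to the second, so a negative value here is lower on the diet. The median log2FC of the members was -0.042 and that of all genes -0.018. The groups did not overlap for 1 member, Cxcl14, against 18.3% of all genes. DESeq2 called 2 members, Cxcl13 and Cxcl14, and so did the fit without the metformin mice, with 1544 and 1616 of all genes called. Limma called 0 members and 197 of all genes, with 5 members at an unadjusted P below 0.05. The share of all genes at that P is not given here for limma.

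Cxcl14 had 31.5, 28.3, 22.9 and 21.3 CPM in the control mice and 37.3, 40.0, 41.5 and 47.9 CPM in the HFD mice. Every HFD mouse was thus above every control mouse, with a log2FC of 0.68 ± 0.23 (SE), or 1.60-fold. The adjusted P was 0.0968 in edgeR, and the exact two-sided permutation test of 4 mice against 4 gave P = 0.0286, the smallest it can give. In the fit without the metformin mice the adjusted P of Cxcl14 was 0.0178, and in the fit to the 8 mice compared it was 0.0282. The HFD + RSV mice had 44.2, 35.9, 30.2 and 34.0 CPM and the HFD + MET mice 27.8, 35.1, 16.8 and 43.6 CPM, both overlapping the HFD group. The log2FC against the HFD group was -0.21 ± 0.22 (SE) with resveratrol and -0.43 ± 0.23 (SE) with metformin.

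For Cxcl12, the control mice had 68.2, 114, 66.2 and 82.7 CPM and the HFD mice 95.8, 115, 93.3 and 98.7 CPM, so control mouse 2 lay within the HFD range. The log2FC was 0.28 ± 0.15 (SE) at an adjusted P of 0.277 in edgeR. Its classical receptor Cxcr4 had a log2FC of -0.37 ± 0.22 (SE) and its atypical receptor Ackr3 one of 0.20 ± 0.18 (SE) in the same comparison. Against the HFD group, the log2FC of Cxcl12 was 0.02 ± 0.15 (SE) with resveratrol and 0.04 ± 0.15 (SE) with metformin.

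Promoters are shown for Cxcl14, whose groups did not overlap, and for Cxcl9 and Cxcl10, the ligands known as interferon-induced. They run from 250 bases before to 50 after the start of each gene (RefSeq, GRCm38.p6), 5′ to 3′ on the minus strand that all 3 genes use. Capitals mark the interferon motif, which is GAAA, any 2 bases and GAAA again, the core of interferon-stimulated response elements, and the NF-kappaB consensus, searched on both strands. In the window of Cxcl10, the first capitals mark the interferon motif and the other 2 runs NF-kappaB, none of which overlap. Cxcl14 lies at chr13:56296502-56296801, Cxcl9 at chr5:92328030-92328329 and Cxcl10 at chr5:92348840-92349139:
Cxcl14: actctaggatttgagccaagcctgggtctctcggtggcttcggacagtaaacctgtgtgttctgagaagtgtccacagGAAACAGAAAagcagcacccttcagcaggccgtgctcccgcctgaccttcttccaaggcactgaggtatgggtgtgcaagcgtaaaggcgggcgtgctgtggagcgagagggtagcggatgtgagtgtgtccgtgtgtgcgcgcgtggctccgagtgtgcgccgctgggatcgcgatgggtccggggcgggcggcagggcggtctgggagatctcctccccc
Cxcl9: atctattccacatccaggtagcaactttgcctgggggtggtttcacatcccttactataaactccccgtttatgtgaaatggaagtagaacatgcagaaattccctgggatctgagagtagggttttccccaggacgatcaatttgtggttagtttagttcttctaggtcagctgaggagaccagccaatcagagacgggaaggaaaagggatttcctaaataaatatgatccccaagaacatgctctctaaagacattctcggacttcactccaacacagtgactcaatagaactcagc
Cxcl10: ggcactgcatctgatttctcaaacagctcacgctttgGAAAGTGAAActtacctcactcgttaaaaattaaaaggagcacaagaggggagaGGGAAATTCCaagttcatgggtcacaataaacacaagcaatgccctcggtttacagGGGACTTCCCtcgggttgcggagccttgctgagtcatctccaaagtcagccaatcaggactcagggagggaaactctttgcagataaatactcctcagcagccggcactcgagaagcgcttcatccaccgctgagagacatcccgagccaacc

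Of the 57 genes, 39 had a promoter entry. The interferon motif was in 3 of these, Ccl19, Cxcl10 and Cxcl14, and in 3.49% of all 27025 promoters. The NF-kappaB consensus was in 6, Ackr2, Ccl9, Ccr3, Cxcl1, Cxcl2 and Cxcl10, and in 4.35% of all promoters. Neither was found in the window of Cxcl9. A match describes the letters of the window and not a bound site.

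Among the interferon-induced ligands, Cxcl9 had 2.30, 1.29, 4.34 and 3.85 CPM in the control mice and 1.21, 0.582, 0.840 and 1.42 CPM in the HFD mice. The groups overlapped through control mouse 2. The log2FC was -1.53 ± 0.56 (SE) at an adjusted P of 0.119 in edgeR, and the exact permutation P was 0.0571. In the HFD + MET group Cxcl9 had 4.29, 1.24, 5.79 and 1.33 CPM, with 2 mice above and 2 within the HFD range. Its log2FC against the HFD group was 1.63 ± 0.56 (SE) at an adjusted P of 0.605. With resveratrol the 4 mice had 2.06, 1.73, 2.48 and 0.671 CPM, and the log2FC against the HFD group was 0.78 ± 0.56 (SE). The adipocyte markers, given above, had a median log2FC of -1.91 over 7 markers between HFD and control mice, of which 0 were called and 3 had an unadjusted P below 0.05 in edgeR. Without control mouse 3 and HFD + MET mouse 3, the log2FC of Cxcl9 between HFD and control mice was -1.27.

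Of the other interferon-induced ligands, Cxcl10 had 0.169, 0.322, 0.586 and 0.104 CPM in the control mice and 0.173, 0.499, 0.354 and 0.505 CPM in the HFD mice, at 1 to 15 counts per mouse over all groups. Its log2FC was 0.32 ± 0.67 (SE) between HFD and control mice and -1.27 ± 0.73 (SE) between HFD + RSV and HFD mice, both short of the threshold at adjusted P-values of 0.807 and 0.999 in edgeR. Cxcl11 had 0.449, 1.29, 0.313 and 1.51 CPM in the control mice, 1.39, 0.998, 1.33 and 0.597 in the HFD mice, 0.537, 0.217, 0.266 and 1.16 in the HFD + RSV mice and 0.275, 1.76, 0.676 and 0.503 in the HFD + MET mice. All groups overlapped. Cxcl11 had a log2FC of 0.27 ± 0.62 (SE) and -0.98 ± 0.64 (SE) in the same comparisons. As given above, Cxcl11 is annotated as a polymorphic pseudogene with 1.6% of its counts in a protein-coding transcript, so these values are not levels of a coding transcript.

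Cxcl13, the ligand that draws B cells into lymphoid follicles, had 0.786, 2.51, 2.03 and 0.312 CPM in the control mice and 0.346, 0.208, 0.133 and 0.367 CPM in the HFD mice. Control mice 2 and 3 were high, and control mouse 4 lay within the HFD range. The log2FC was -2.43 ± 0.80 (SE), or 5.38-fold lower, at an adjusted P of 0.0941 in edgeR, and the exact permutation P was 0.0857. The adjusted P of Cxcl13 was 0.0246 in the fit without the metformin mice and 0.202 without control mouse 2. The HFD + RSV mice had 0.402, 0.780, 0.665 and 0.805 CPM, every one above every HFD mouse, with a log2FC against the HFD group of 1.32 ± 0.82 (SE) at an adjusted P of 0.999 in edgeR. These levels rest on 3 to 8 counts in each HFD mouse and 9 to 18 in each HFD + RSV mouse. The HFD + MET mice had 0.440, 0, 1.31 and 0.719 CPM. The libraries with high Cxcl13 among the controls were also the controls with the most Schwann cell markers, 175 and 152 CPM, against 51.3 and 52.9 CPM in the others. They had the most mast cell (23.4 and 25.8 CPM), lymphatic endothelial (69.5 and 62.9 CPM) and erythroid markers (656 and 881 CPM) of the controls as well. Adipocyte markers were lowest among the controls in control mouse 2, at 1040 CPM. HFD + RSV mouse 2, with 333 CPM of Schwann cell markers, had 0.780 CPM of Cxcl13, within the range of its group. The part of these markers in the result was not tested. The 6 B cell markers summed to 0.52 to 1.17 CPM in the control mice.

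Cx3cr1, the fractalkine receptor of monocytes and resident macrophages, had 0.618, 1.25, 0.547 and 2.18 CPM in the control mice and 0.389, 0.624, 0.398 and 0.322 CPM in the HFD mice. Control mice 2 and 4 were high, and the other controls lay within the HFD range. The log2FC was -1.39 ± 0.45 (SE), or 2.62-fold lower, at an adjusted P of 0.0918 in edgeR. Without control mouse 3 and HFD + MET mouse 3 the adjusted P of Cx3cr1 was 0.0354. Its ligand Cx3cl1, which is displayed on endothelium, had a log2FC of -0.29 ± 0.32 (SE) in the same comparison. Against the HFD group, the log2FC of Cx3cr1 was 0.46 ± 0.47 (SE) with resveratrol and 0.59 ± 0.46 (SE) with metformin.

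**Figure D3:**
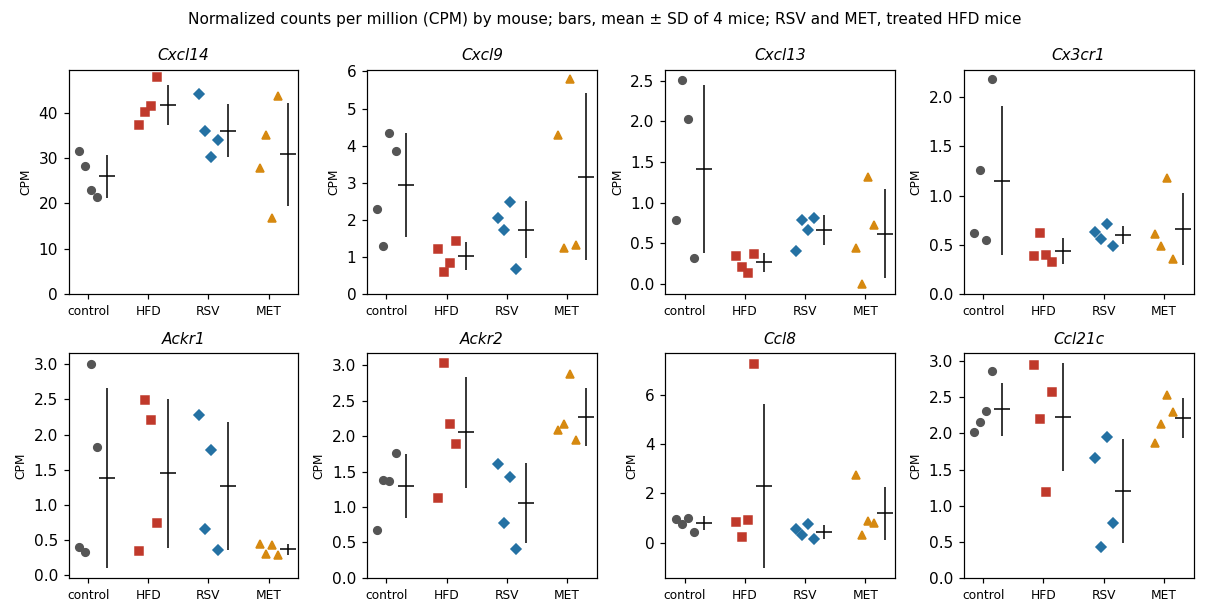
Normalized CPM of 8 members in each mouse on linear axes, with the mean ± SD of 4 mice beside the points; RSV and MET stand for the treated HFD groups. Every HFD mouse lies above every control mouse for Cxcl14, 1 HFD mouse carries the high mean of Ccl8, and the 4 HFD + MET mice of Ackr1 sit between 0.287 and 0.440 CPM.

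With resveratrol on the diet, 0 of the 28 members were called at an adjusted P below 0.05 in edgeR, and 0% of all genes were. DESeq2 and limma called 0 members as well, and 8 and 0 of all genes. At an unadjusted P below 0.05 they had 3 and 1 members, and their shares of all genes at that P are not given here. In edgeR an unadjusted P below 0.05 was reached by 3 members (10.7%, against 4.72% of all genes). These were Ccl8, Ackr2 and Ccl21c, each lower in the HFD + RSV group. With the added criterion of an absolute log2FC above 1 there was 1 member, Ccl8, against 1.08% of all genes. The median log2FC of the members was 0.009 and that of all genes 0.005. The groups did not overlap for 2 members, Ccl27a and Cxcl13, against 4.2% of all genes.

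Ccl8, a monocyte attractant, had 0.822, 0.208, 0.928 and 7.26 CPM in the HFD mice and 0.537, 0.304, 0.754 and 0.134 CPM in the HFD + RSV mice. A single library, HFD mouse 4 with 158 counts, stood apart from 3 to 50 counts in all others. The log2FC with resveratrol was -2.40 ± 0.93 (SE) at an adjusted P of 0.999 in edgeR, and the value without HFD mouse 4 was -0.59. Between the HFD and control groups, the latter at 0.416 to 1.02 CPM, the log2FC of Ccl8 was 1.53 with all mice and -0.28 without HFD mouse 4. With metformin it was -0.99 with all mice and 0.82 without HFD mouse 4. The same mouse had the highest count of the 16 for Ccl7 (26) and Ccl12 (7), given for every mouse above. Ccl7 and Ccl12 lie with Ccl2, Ccl8 and Ccl11 in 1 cluster on chromosome 11, and Ccl11 had 10.1 CPM in this mouse, within the 9.40 to 13.1 CPM of the HFD group.

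Ackr2, the atypical receptor of lymphatic endothelium that degrades inflammatory CC ligands, had 1.13, 3.03, 2.17 and 1.88 CPM in the HFD mice and 1.61, 0.780, 1.42 and 0.402 CPM in the HFD + RSV mice. The groups overlapped through HFD mouse 1. The log2FC was -0.96 ± 0.39 (SE) at an adjusted P of 0.999 in edgeR. The HFD + MET mice had 2.09, 2.17, 2.87 and 1.94 CPM, above every HFD + RSV mouse and above every control mouse (0.674 to 1.77 CPM). Between the HFD + RSV and HFD + MET groups the log2FC of Ackr2 was -1.10 ± 0.39 (SE) at an adjusted P of 0.962, and the exact permutation P was 0.0286. The lymphatic endothelial markers summed to 45.0 to 69.5 CPM in control mice, 24.7 to 43.7 in HFD mice, 32.9 to 47.0 in HFD + RSV mice and 28.6 to 50.4 in HFD + MET mice. Their part in the result for Ackr2 was not tested.

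Ccl21c had 2.02, 2.16, 2.31 and 2.86 CPM in the control mice and 1.65, 0.434, 1.95 and 0.760 CPM in the HFD + RSV mice, and every HFD + RSV mouse lay below every control mouse. The log2FC was -0.96 ± 0.37 (SE) at an adjusted P of 0.244 in edgeR. Against the HFD group (2.94, 2.20, 1.19 and 2.57 CPM) it was -0.89 ± 0.37 (SE), with overlap. Ccl21a was lowest in the same 2 mice, with 0.347 CPM in HFD + RSV mouse 2 and 0.313 CPM in HFD + RSV mouse 4, and its log2FC against the HFD group was -0.76 ± 0.45 (SE). Reads shared between Ccl21a and Ccl21c were not measured. If their copies share reads, the 2 symbols are not independent measurements.

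Ccl27a, a skin ligand of Ccr10, had 2.77, 2.62, 2.34 and 2.53 CPM in the HFD mice and 3.08, 3.25, 3.06 and 3.22 CPM in the HFD + RSV mice. The groups did not overlap, at a log2FC of 0.30 ± 0.20 (SE) and an adjusted P of 0.999 in edgeR. The control mice, with 1.74 to 2.96 CPM, also lay below every HFD + RSV mouse.

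Of the eosinophil attractants, Ccl24 (eotaxin-2) had 1.47, 0.998, 1.55 and 1.19 CPM in the HFD mice, 1.92, 1.91, 2.40 and 1.16 in the HFD + RSV mice and 3.08, 0.674, 0.972 and 2.48 in the HFD + MET mice. Its log2FC relative to the HFD group was 0.50 ± 0.40 (SE) with resveratrol and 0.46 ± 0.40 (SE) with metformin, with overlap in both. Ccl11 had 9.04, 10.8, 11.8 and 9.41 CPM in the control mice, 10.3, 9.40, 13.1 and 10.1 in the HFD mice, 11.1, 13.3, 12.3 and 13.2 in the HFD + RSV mice and 13.0, 11.7, 10.2 and 15.2 in the HFD + MET mice. HFD mouse 3 lay within the range of both treated groups, and the log2FC was 0.22 ± 0.14 (SE) with either drug. The adjusted P-values of Ccl11 in edgeR were 0.999 with resveratrol and 0.67 with metformin.

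Among the ligands known from epithelia, Ccl25 had 15.9, 12.8, 14.7 and 14.2 CPM in the control mice, 14.9, 12.2, 14.8 and 11.7 in the HFD mice, 10.8, 17.1, 13.8 and 15.1 in the HFD + RSV mice and 15.3, 13.3, 16.01 and 13.9 in the HFD + MET mice. All groups overlapped, and the log2FC relative to the HFD group was 0.08 ± 0.13 (SE) with resveratrol and 0.13 ± 0.13 (SE) with metformin. Ccl28, a mucosal ligand of Ccr10, ranged from 0.0894 to 1.78 CPM, both values being from HFD + RSV mice. Cxcl16, the membrane-bound ligand of Cxcr6, ranged from 1.21 to 2.64 CPM, Ackr4, the scavenger of Ccl19, Ccl21 and Ccl25, from 0.276 to 0.901 CPM, and Cxcl1, a neutrophil attractant, from 0.173 to 0.760 CPM. None of Ackr4, Ccl28, Cxcl1 and Cxcl16 had an unadjusted P below 0.05 in any of the 6 edgeR comparisons, and the lowest adjusted P among them was 0.607.

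With metformin on the diet, 0 of the 28 members were called at an adjusted P below 0.05 in edgeR, and 0.013% of all genes. DESeq2 and limma called 0 members, and 31 and 0 of all genes. Each had 2 members at an unadjusted P below 0.05, and their shares of all genes at that P are not given here. In edgeR, 2 members had an unadjusted P below 0.05 with an absolute log2FC above 1, against 1.76% of all genes. They were Cxcl9 (higher) and Ackr1 (lower). No other member had an unadjusted P below 0.05, so the share was 7.14% of members against 8.02% of all genes. The median log2FC of the members was 0.07 and that of all genes 0.017. The groups overlapped for all 28 members, while 3.72% of all genes did not overlap.

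Ackr1, the atypical receptor of venules and red cells that binds many inflammatory ligands, had 0.440, 0.300, 0.422 and 0.287 CPM in the HFD + MET mice, or 8 to 10 counts in each. The HFD mice had 0.346, 2.50, 2.21 and 0.735 CPM, the control mice 0.393, 0.322, 3.01 and 1.82 CPM and the HFD + RSV mice 2.28, 0.650, 1.77 and 0.358 CPM. Each of these 3 groups had 2 mice at 1.77 CPM or more and 2 at 0.735 CPM or less, and only low values were found in the 4 HFD + MET mice. The log2FC of Ackr1 with metformin was -2.00 ± 0.81 (SE) against the HFD group, 4.00-fold lower, at an adjusted P of 0.618 in edgeR, and the exact permutation P was 0.0857. On the scale log2(FPKM + 0.1) it was -0.81. The 5 erythroid markers summed to 362 to 477 CPM in the HFD mice and 500 to 1390 CPM in the HFD + MET mice, with a median log2FC of 1.12, and all 5 were higher at an unadjusted P below 0.05 while 0 were called in edgeR. With resveratrol they summed to 507 to 1340 CPM and in the control group to 357 to 881 CPM. Their part in the result for Ackr1 was not tested.

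**Figure D4:**
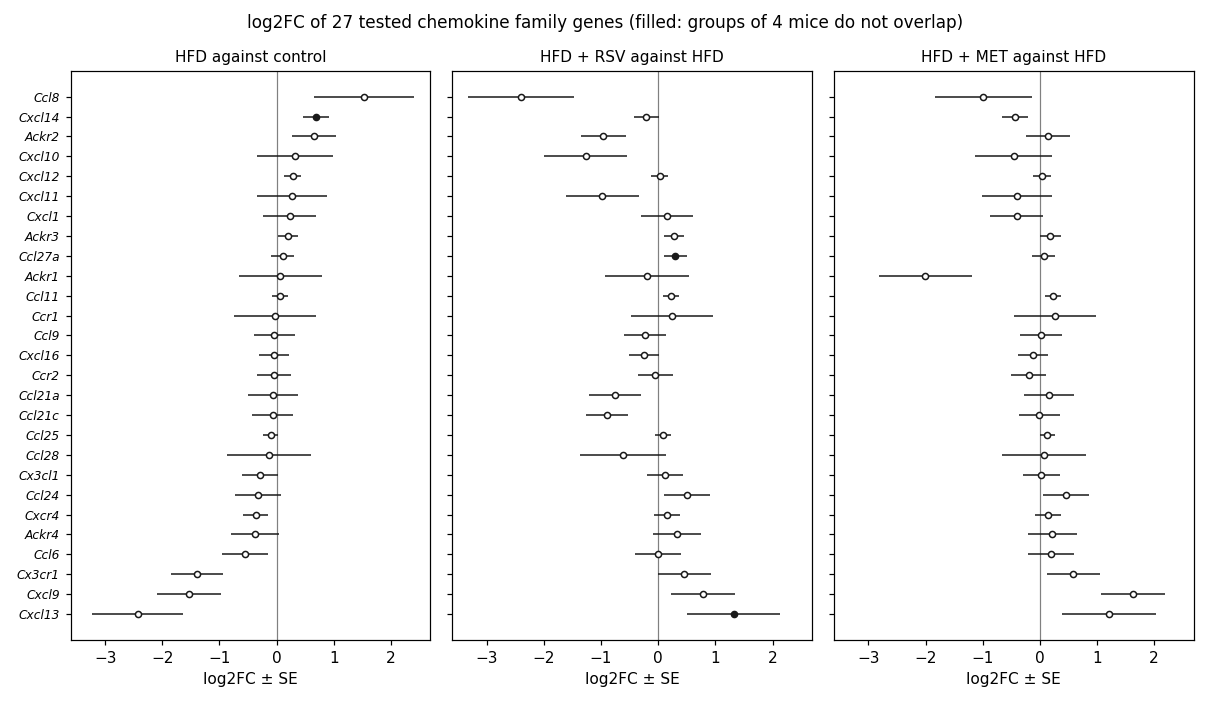
Points give the log2FC of 27 tested members with the SE as horizontal bars, in the order of their log2FC between HFD and control mice; the HFD mice enter all 3 panels. Filled points mark members whose groups of 4 mice do not overlap, which are Cxcl14 in the first panel, Ccl27a and Cxcl13 in the second and none in the third.

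The treated groups were also set against the control group, whose mice are shared with the comparison of the diet. In the HFD + RSV group 0 of 28 members were called in edgeR (0.00651% of all genes). An unadjusted P below 0.05 was reached by 2 members (7.14%, against 15.8% of all genes), namely Ccl21c (lower) and Ackr3 (higher). Of these 2 members, 0 had an absolute log2FC above 1, against 2.72% of all genes. Ackr3 had 14.4, 17.1, 19.5 and 15.6 CPM in the control mice and 23.2, 27.4, 18.4 and 23.6 CPM in the HFD + RSV mice, with a log2FC of 0.48 ± 0.18 (SE) at an adjusted P of 0.239. The groups did not overlap for Ccl21c and Ccl27a, against 11.3% of all genes. In the HFD + MET group 0 of 28 members were called in edgeR (0% of all genes). Ackr1 and Ackr3 had an unadjusted P below 0.05, which was 7.14% of members against 9.5% of all genes. Ackr1 alone had an absolute log2FC above 1, against 1.63% of all genes, and Ackr2 alone did not overlap, against 3.53% of all genes. DESeq2 called 0 members in both comparisons and 359 and 141 of all genes, with 3 members at an unadjusted P below 0.05 in each. Limma called 0 members and 0 and 2 of all genes, with 2 and 1 members at an unadjusted P below 0.05. The share of all genes at that P is not given here for DESeq2 and limma.

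Between the 2 drugs, 0 of the 28 members were called in edgeR (0% of all genes). DESeq2 and limma called 0 members, and 10 and 0 of all genes. They had 4 and 3 members at an unadjusted P below 0.05, and their shares of all genes at that P are not given here. In edgeR an unadjusted P below 0.05 was found for Ackr1, Ackr2 and Ccl21c, or 10.7% of the members against 4.68% of all genes. Ackr1 (higher with resveratrol) and Ackr2 (lower with resveratrol) had an absolute log2FC above 1, against 0.97% of all genes, and Ackr2 alone did not overlap, against 1.56% of all genes. Over the 6 comparisons the groups did not overlap in 7 of 168 member comparisons. Per comparison this was 0 to 7.14% of the members, and 1.56% to 18.3% of all genes.

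Ccl6 had 10.2, 10.3, 15.9 and 7.38 CPM in the control mice, 6.45, 3.83, 7.16 and 12.5 in the HFD mice, 6.53, 8.41, 9.94 and 4.96 in the HFD + RSV mice and 13.8, 3.33, 10.2 and 7.19 in the HFD + MET mice. Every pair of groups overlapped, and the log2FC between HFD and control mice was -0.55 ± 0.41 (SE). Ccl9, which lies 9245 bases from Ccl6 on chromosome 11 and shares the receptor Ccr1 with it, ranged from 3.99 to 13.6 CPM, and its log2FC was -0.04 ± 0.37 (SE). After the group means were subtracted, Ccl6 and Ccl9 moved together over the 16 mice (Pearson's r = 0.931, permutation P = 0.00019; Spearman's rho = 0.926, permutation P = 0.0001; r = 0.911 without the 2 mice farthest from the median). Of the receptors, Ccr2, the main receptor of Ccl2, had a log2FC of -0.05 ± 0.30 (SE) and Ccr1 one of -0.03 ± 0.72 (SE) in the same comparison.

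The 12 macrophage markers summed to 247 to 351 CPM in control mice, 161 to 321 in HFD mice, 153 to 351 in HFD + RSV mice and 134 to 422 in HFD + MET mice, and the groups overlapped. Each of the 28 members was set against the summed macrophage, adipocyte, endothelial and fibro-adipogenic progenitor markers over the 16 mice, with group means subtracted, which made 112 relations from the same libraries. With the macrophage markers, Ccl6 had r = 0.916 and rho = 0.862, Ccl9 had r = 0.914 and rho = 0.879, and Ccl8 had r = 0.836 and rho = 0.838. The permutation P-values of these 3 genes were 0.00011, 9e-05 and 0.00035 for r and 0.00037, 0.00027 and 0.00041 for rho, and the adjusted P-values were 0.00616 to 0.0131. Without the 2 mice farthest from the median, r was 0.851, 0.869 and 0.807. With the adipocyte markers, Cxcl9 had r = 0.855 and rho = 0.879 (permutation P = 0.00155 and 0.00039, adjusted P = 0.0347 and 0.0115, r = 0.793 without the 2 farthest mice), and Ccl6 and Ccl9 also passed both adjusted tests. With the macrophage markers, Cxcl9 had r = 0.705 and rho = 0.741 (permutation P = 0.00775 and 0.00183, adjusted P = 0.062 and 0.0233, r = 0.625 without the 2 farthest mice). With the endothelial markers, Cx3cl1 had r = 0.827 and rho = 0.835 (permutation P = 0.00346 and 0.00161, adjusted P = 0.0475 and 0.0233, r = 0.786 without the 2 farthest mice), and Cxcl12 had r = 0.559 and rho = 0.694. No member passed both tests with the progenitor markers. Cx3cr1 had r = -0.00796 with the macrophage markers.

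**Figure D5:**
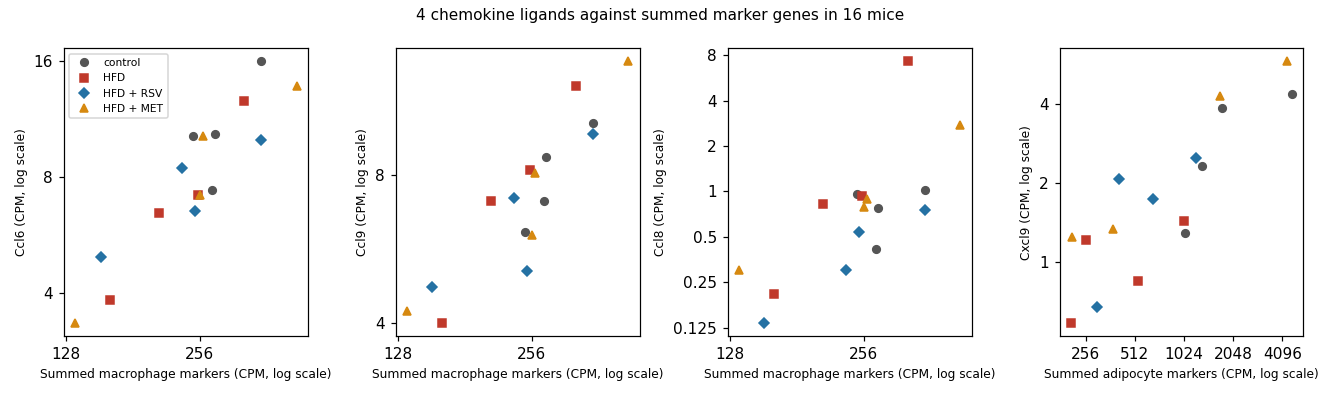
Each point is 1 of 16 mice, with the summed marker genes (CPM, log scale) on the horizontal axis and the ligand (CPM, log scale) on the vertical axis; symbols mark the groups. Mice with more macrophage markers had more Ccl6, Ccl9 and Ccl8, and mice with more adipocyte markers had more Cxcl9, with the highest Ccl8 in HFD mouse 4.

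Other genes of the pathway were taken from lists. Of 7 chemokine or related genes that the names above do not cover (such as the platelet ligand Pf4 and the decoy receptor Ccrl2), 0 were called in any of the 6 comparisons in edgeR. At most 3 had an unadjusted P below 0.05 in one comparison. These were 2 higher and 1 lower in HFD + MET than in HFD mice, where 8.02% of all genes had such a P. Of 26 tested G proteins, kinases and arrestins that relay or end the receptor signal, 0 were called in any comparison in edgeR, with 3 at an unadjusted P below 0.05 between HFD and control mice. Among all genes, 2.43% were called and 24.2% had an unadjusted P below 0.05 in that comparison. Of 14 tested leukocyte adhesion genes, 4 had an unadjusted P below 0.05 in it and 1 was called, Itga4, an integrin subunit for binding to Vcam1, which rose on the diet relative to the control group. Itga4 had 27.2, 17.2, 17.4 and 16.9 CPM in the control mice and 54.4, 41.0, 55.5 and 37.6 CPM in the HFD mice, with a log2FC of 1.26 ± 0.30 (SE) at an adjusted P of 0.0462 in edgeR. Of 11 tested NF-kappaB and cytokine genes, 1 had an unadjusted P below 0.05 in it and was called, Nfkbia, the inhibitor that holds NF-kappaB in the cytoplasm, which fell in the same comparison. Nfkbia had 24.4, 35.1, 35.7 and 44.5 CPM in the control mice and 22.4, 16.6, 18.4 and 18.6 CPM in the HFD mice, with a log2FC of -0.88 ± 0.20 (SE) at an adjusted P of 0.0446. The adjusted P passed 0.05 in 16 of 29 alternative analyses for each of these 2 genes, among them the fits without control mouse 2, 3 or 4 and without any single HFD mouse, and it then reached up to 0.136 for Itga4 and 0.12 for Nfkbia.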

How the data were processed

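The authors removed ribosomal RNA, sequenced 1 paired-end library per mouse and, per the labels and methods, used fastp, HISAT2, GRCm38 and StringTie. They deposited expected counts per transcript, which are whole numbers without normalization, and FPKM values. The deposited FPKM equal the count divided by transcript length and by the total of both tables within 0.01%. Total counts were 20281801 to 34021101 per mouse. Here the counts of the mRNA table were summed per gene name, and 4 transcripts split over 2 lines each were joined. No 2 libraries were identical. Whether mice shared a cage or a day is not given.

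Low genes were removed by filterByExpr with the 4 groups as design, with min.count at 10 and min.total.count at 15. The others were scaled by TMM and tested with edgeR 4.0.16 (quasi-likelihood, robust, all 16 mice in 1 fit) in R 4.3.3. P-values were adjusted by Benjamini-Hochberg over 15364 genes. The SE is the absolute log2FC divided by the square root of F. CPM are counts scaled to the normalized library size. Log2 CPM (prior count 2) served the exact permutation tests and the overlap of groups. Relations used log2(CPM + 0.1) with 100000 permutations within groups. The fit was tested on simulated data with 200 changed genes. Alternatives were DESeq2 1.42.0, limma 3.58.1 on log2 FPKM, other scalings and filters, fewer mice, and each mouse left out. The members and lists were chosen with earlier results of these data known. Full values are given for members called in any test, the 3 highest and 3 lowest log2FC in each of 3 comparisons and the 5 highest mean FPKM. Ccl7, Ccl12, Ccl27a, Ccl21a, Ccl21c, the receptors, Ccl6, Ccl9 and Cx3cl1, the relations to markers and the fits without pairs of mice high in a marker list were added after the values were seen. One member is counted among those tested but is not reported here by name.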

Additional observations from a re-analysis of the deposited data

Results flagged for a closer look

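The gap of the highest or lowest mouse to its nearest neighbour was compared with the range of its group in 112 groups of 4 mice, of which chance alone marks about 1 in 20. It was large in 2 of them. Ccr2 was low in HFD + MET mouse 2, at 4.27 CPM against 5.20 to 5.39 CPM in the other 3 mice, and the gap was 0.843 of the range on the log2 scale. Cxcl1 was high in control mouse 3, at 0.547 CPM against 0.312 to 0.337 CPM, and the gap was 0.869 of the range. Control mouse 3 had 14 counts of Cxcl1, and the other control mice had 6 to 10.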

How the results depend on the processing

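Between the HFD and control groups, 0 members were called. DESeq2 and the fit without the metformin mice each called 2 (Cxcl13 and Cxcl14), with 1544 and 1616 of all genes called. The fit to the 8 mice compared called 1 (Cxcl14), with 998 of all genes, against 374 in the main fit. Leaving out the 2 mice highest in adipocyte markers called 1 (Cx3cr1), a setting chosen after seeing the data, like that on the Schwann cell markers. Leaving out single mice gave 0 to 2 calls, with 1 (Cxcl13) without HFD + MET mouse 2 and 2 (Cx3cr1 and Cxcl14) without HFD + MET mouse 3. For the fits without single mice or pairs of mice, the share called over all genes is not given here. At an unadjusted P below 0.05 with an absolute log2FC above 1, the counts were 3 for HFD mice relative to control, 1 for resveratrol and 2 for metformin relative to HFD, 1 for metformin relative to control and 2 between the drugs. The shares of all genes were 4.94%, 1.08%, 1.76%, 1.63% and 0.97% in this order. The number of members with a mean of 10 or more counts was 25 to 27 with single mice left out, and 6 member comparisons had no overlap without scaling, against 7.

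Some log2FC values changed sign without passing a threshold, and apart from Ccl8 they were near 0 in the main fit. Ccl8 had 1.53 between HFD and control mice and -0.99 between HFD + MET and HFD mice in that fit. Between HFD and control mice, log2FC was -0.187 for Ackr1 and -0.112 for Ccl11 without scaling, -0.287 for Ackr1 without the 2 mice highest in Schwann cell markers, -0.025 for Cxcl11 without the 2 mice highest in adipocyte markers, and -0.086 and -0.078 for Ccl11 with limma. Between HFD + RSV and HFD mice it was 0.025 for Ackr1 and -0.018 for Ccl25 without the Schwann-high mice, and -0.014 for Cxcl12 with limma. Without scaling, the median of all genes shifted by -0.162 between HFD and control mice and by 0.126 between HFD + MET and HFD mice. Leaving out single mice gave, between HFD and control mice, -0.281 to 1.913 for Ccl8, -0.022 to 0.621 for Cxcl11, -0.338 to 0.797 for Ackr1 and -0.050 to 0.133 for Ccl11. Between HFD + RSV and HFD mice it gave -0.642 to 0.205 for Ackr1, -0.059 to 0.092 for Cxcl12 and -0.018 to 0.194 for Ccl25. Between HFD + MET and HFD mice it gave -1.796 to 0.823 for Ccl8, -0.060 to 0.395 for Ackr2, -0.028 to 0.108 for Cxcl12 and -0.004 to 0.279 for Ackr3. Apart from Ccl8, whose sign rests on HFD mouse 4, the cause was not tested.

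The titles end in numbers that recur between groups, and the labels do not say what these mean. The deviations of 20 pairs of mice with the same last number from their group means correlated at -0.358 to 0.298, with 6 above 0.1, and 0 of 16 mice were closest to a mouse of their own number, so the numbers were not taken to pair the mice. A replicate block by this number, chosen after seeing the data, called 0 members in every comparison and gave a log2FC of -0.113 for Ackr1 between HFD and control mice and of -0.004 for Cxcl12 between HFD + RSV and HFD mice. Itga4 and Nfkbia were not called in it, at adjusted P-values of 0.0806 and 0.0709 in edgeR. The filter limits the tests to 28 of 57 members, and genes near 10 counts per mouse carry the widest errors.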
